A study of Mus musculus with 54 samples.

Results

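The genes described here are Trp53, which encodes the transcription factor p53, and 8 of its targets: Mdm2, Ccng1, Plk2, Zmat3, Trp53inp1, Gdf15, Bbc3 and Bax. They were chosen by name, as 9 of the 55401 genes in the deposited count table, and their counts were followed in mouse embryonic stem cells with different forms of EZH2. EZH2 is the enzyme of Polycomb repressive complex 2, which methylates histone H3, and its variants cause the overgrowth disorder Weaver syndrome. The lines were, per the labels, the Ezh2 fl/∆ heterozygote carrying 1 of the EZH2 variants A733T, A677T, R679C, K563E and K634E, the same heterozygote with added EZH2-WT (WT below), the heterozygote with nothing added (het) and the parental line. All lines but the parental one thus lack 1 Ezh2 allele, and WT and the variant lines differ in the EZH2 that was added. Each line was sequenced in 3 libraries after removal of 2i/LIF and treatment with all-trans retinoic acid (ATRA), and in 3 libraries undifferentiated (mESC), which gives 48 libraries in 16 groups. A733T was set apart as the growth restriction-associated variant from general knowledge, since the labels do not say which one that is, and the mean of the other 4 is called the Weaver variants. The labels also name a Y728 mutant, which was not analysed here. The labels name neither cultures nor clones behind the replicates, so a p-value reflects only how much these libraries vary, and that variation may be technical.

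p53 is made all the time and destroyed by the ubiquitin ligase Mdm2, and DNA damage or other stress lets it accumulate and switch on genes for cell cycle arrest, repair and cell death. Several targets feed back on it: Mdm2 degrades it and cyclin G1 (Ccng1) acts on Mdm2, while Trp53inp1 raises its activity. Embryonic stem cells hold abundant p53, and p53 is known there for restraining self-renewal genes and aiding differentiation. Because p53 is set largely at the level of the protein, its activity is usually read from the transcripts of its targets.

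Libraries held 15361598 to 31338825 counts, so that each member except Gdf15 had at least 131 counts in every library. In bulk RNA, fewer cells of a type and less RNA per cell cannot be told apart. Pluripotency markers summed to 4063 to 5312 CPM (normalised counts per 1000000 counts) in mESC libraries, and 5 ATRA response markers summed to 571 to 939 CPM in ATRA libraries against 2.14 to 7.05 CPM in mESC libraries. Of 10 fibroblast markers, 5 stayed under 1 CPM in every line after ATRA and 7 did in mESC. Over single libraries, 7 extraembryonic endoderm markers summed to 86.1 to 183 CPM in ATRA and 3.95 to 11.6 CPM in mESC, and 5 trophoblast markers, of which Elf5 stayed under 1 CPM in every line, to 21.8 to 58.3 and 68.3 to 131 CPM. The part of such cells in the results was not tested. Ezh2 transcripts also differed in amount between the lines. The 4 Weaver variant lines averaged 383 to 424 CPM in ATRA and 488 to 560 CPM in mESC, A733T 275 ± 3.75 and 360.2 ± 17.6 CPM (SD, n = 3), and WT 362 ± 5.04 and 439 ± 22.7 CPM. Het was lowest (238 ± 4.86 and 280.4 ± 4.11 CPM), against 279 ± 5.02 and 302 ± 0.870 CPM in parental cells. The part of the amount of Ezh2 in the results was not tested. Libraries also differed in their GC trend, taken as Spearman's rho over genes of a gene's GC percentage with how far the library departed from the average one. In ATRA it was -0.77 to 0.57 in the 12 Weaver variant libraries and -0.29 to 0.56 in WT, and in mESC it was -0.73 to 0.10 and 0.50 to 0.73. The 2 libraries called those that stood apart were A677T replicate 3 in mESC and K634E replicate 3 in ATRA. They had the lowest rho and the highest mitochondrial share of their state (2.7% and 2.77%). In mESC, K634E replicate 2 came close to A677T replicate 3 on both and was kept. Its rho was -0.726 against -0.734, and its mitochondrial share 2.6%. Main results on the members are therefore also given after removal of the GC trend (GC-corrected), where this changed calls. The same holds for fits without the 2 libraries that stood apart. For the gene lists and genes outside the members, GC-corrected values are given only in part, and many changed.

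Per kilobase of exon, Trp53 and Bax, the gene of a pore-forming death protein, were the most abundant members, with 78.5 and 91.0 CPM per kb after ATRA (means of the 8 lines) against 104 and 92.3 in mESC. Ccng1 followed with 59.8 and 40.4, then Mdm2 with 44.5 and 20.9 and Trp53inp1 with 27.7 and 17.6. Zmat3, which encodes an RNA-binding protein, stood at 17.0 and 11.4, Plk2, a kinase of the cell cycle, at 17.1 and 4.76, Bbc3, which encodes the death activator PUMA, at 14.3 and 7.80, and Gdf15, a secreted stress factor, at 1.28 and 4.84. With the genes ranked by these means within a state, single libraries of neighbouring genes overlapped, except that Gdf15 lay below Bbc3 in ATRA and that, in mESC, Ccng1 lay below Bax and Mdm2 below Ccng1. In mESC the lower end of that rank ran Zmat3, Bbc3, Gdf15 and Plk2. All 9 genes passed the filter on low counts in both states.

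**Figure D1:**
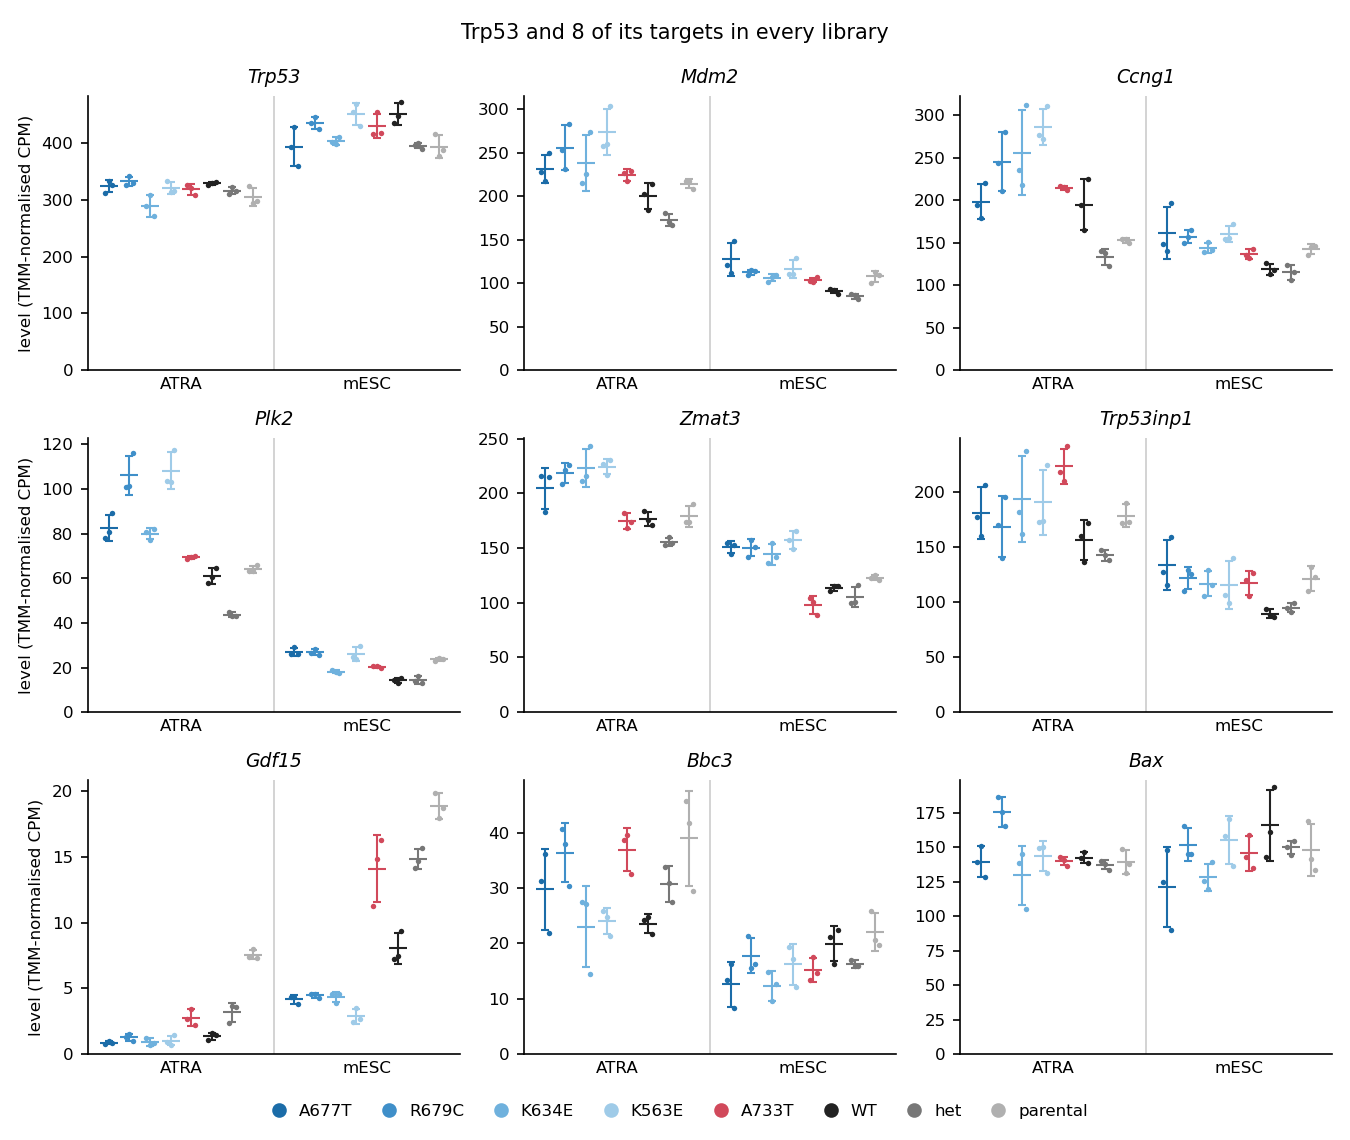
Level of each of the 9 genes (TMM-normalised CPM, linear axes from 0) in ATRA and in mESC, for the 8 lines; dots are the 3 libraries of a group and bars the mean ± SD. Mdm2, Plk2 and Zmat3 stand higher in the 4 Weaver variant lines than in WT in mESC, Gdf15 stands lower there, and Trp53 and Bax vary least between lines.

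The promoters of Mdm2, Ccng1 and Plk2, which were higher with the Weaver variants, and of Gdf15, which was lower, are shown because these genes moved apart although p53 is known to act on all of them. RefSeq windows (GRCm38.p6) from 250 bases before to 50 bases after the start were at hand for 7 of the 9 members, and Zmat3 and Trp53inp1 were not in that table. They were searched for the p53 decamer, the unit that p53 response elements hold in pairs. The motif is its own reverse complement, so a search of 1 strand covers both, and no other motif was searched. The capitals mark a match.
Mdm2, chr10:117710709-117711008, minus strand: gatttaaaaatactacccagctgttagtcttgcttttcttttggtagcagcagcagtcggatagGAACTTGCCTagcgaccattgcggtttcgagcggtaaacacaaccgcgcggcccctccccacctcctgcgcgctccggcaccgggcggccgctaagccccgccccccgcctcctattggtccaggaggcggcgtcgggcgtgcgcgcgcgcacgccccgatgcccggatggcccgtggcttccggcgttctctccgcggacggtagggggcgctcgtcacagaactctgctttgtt
Ccng1, chr11:40755237-40755536, minus strand: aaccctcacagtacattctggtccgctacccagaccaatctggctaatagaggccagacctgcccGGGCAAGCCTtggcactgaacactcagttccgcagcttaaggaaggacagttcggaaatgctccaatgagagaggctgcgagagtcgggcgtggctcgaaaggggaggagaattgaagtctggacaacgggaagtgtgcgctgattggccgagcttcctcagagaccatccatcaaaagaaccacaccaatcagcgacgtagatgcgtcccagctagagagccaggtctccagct
Plk2, chr13:110394794-110395093, plus strand: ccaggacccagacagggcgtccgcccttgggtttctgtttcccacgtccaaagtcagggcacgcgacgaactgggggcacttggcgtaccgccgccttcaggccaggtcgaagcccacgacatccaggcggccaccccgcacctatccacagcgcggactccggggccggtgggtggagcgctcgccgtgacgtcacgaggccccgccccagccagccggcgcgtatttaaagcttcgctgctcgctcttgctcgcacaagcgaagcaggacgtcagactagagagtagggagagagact
Gdf15, chr8:70632407-70632706, minus strand: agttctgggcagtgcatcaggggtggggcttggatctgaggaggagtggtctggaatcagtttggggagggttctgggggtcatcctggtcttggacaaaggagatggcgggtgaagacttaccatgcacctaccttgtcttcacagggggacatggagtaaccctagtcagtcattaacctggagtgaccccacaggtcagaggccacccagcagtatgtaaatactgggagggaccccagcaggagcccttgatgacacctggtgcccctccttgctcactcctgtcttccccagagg
A match starts 186 bases before the Mdm2 start and 185 bases before that of Ccng1. Trp53 (GGACTTGCCC, 75 bases before its start on chromosome 11) and Bax (AGGCAAGCTT, 201 bases before its start on chromosome 7) also held 1 match each. The windows of Plk2, Bbc3 and Gdf15 held none, which says only that these letters are absent there. Of all 32851 promoter windows in the table, 8.36% held a match.

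Trp53 transcripts barely differed between lines. The gene (ENSMUSG00000059552.13) lies on chromosome 11 from 69580359 to 69591873 (GRCm38), plus strand. In ATRA, the 12 Weaver variant libraries held 271 to 342 CPM with a median of 321, against 326, 330.3 and 332 CPM in WT. In mESC they held 359.5 to 470 CPM with a median of 427, against 436, 448 and 474 CPM in WT. The groups overlapped in both states, and the log2 difference did not pass in ATRA (-0.06, SE 0.042, adjusted p = 0.393). It did not pass in mESC either (-0.07, SE 0.046, adjusted p = 0.239). Taken singly, Trp53 passed the test in K634E in ATRA (-0.18, adjusted p = 0.0252) and in A677T in mESC (-0.16, adjusted p = 0.0291). Both calls were lost without the library that stands apart in that group (adjusted p = 0.142 and 0.106) and with GC correction, and they held in 1 and 3 of the 6 fits that left out 1 library. With GC correction Trp53 instead passed upward in K563E in mESC (0.15, adjusted p = 0.00577). The processed pseudogene Trp53-ps on chromosome 17 had at most 25 counts in any library, against at least 4559 for Trp53, and how the counting treated reads that match both is not given in the sources used here.

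In mESC, 7 of the 9 members differed between the Weaver variants and WT. Mdm2, Ccng1, Plk2, Zmat3 and Trp53inp1 were higher and Gdf15 and Bbc3 were lower, while Trp53 and Bax did not pass the test. In this comparison 44.4% of the 15830 genes tested were called, 21.4% higher and 22.9% lower, so a count of this size is to be read against a large background. The median log2 fold change was 0.38 over the 9 members and -0.0047 over all genes tested. The mitochondrial share of the counts also differed, at 1.66% to 2.7% in the variant libraries and 1.48% to 1.81% in WT, with 11 of the 12 variant libraries above every WT library. Its part in the result was not tested. The same 7 genes passed without the library that stands apart, and 5 members passed with GC correction, 4 higher and 1 lower, where 36.1% of genes did.

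Among the members, Plk2 had the largest rise in mESC. The gene (ENSMUSG00000021701.8) lies on chromosome 13 from 110395046 to 110400844. Its level was 17.7 to 29.5 CPM in the 12 variant libraries (median 25.8), against 14.3, 13.2 and 15.4 CPM in WT. Every variant library exceeded every WT library, with a log2 difference of 0.80 (SE 0.078, adjusted p = 7.01e-09). By line, A677T (27.1 ± 1.77 CPM, SD, n = 3), R679C (26.9 ± 1.36) and K563E (26.1 ± 2.96) could not be ordered beyond their spread, and K634E was lower at 18.2 ± 0.731. Each of the 4 lines passed against WT, with log2 differences of 0.38 in K634E to 0.97 in A677T.

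Mdm2 (ENSMUSG00000020184.15) lies on chromosome 10 from 117688875 to 117710758, minus strand. It stood at 102 to 149 CPM in the 12 variant libraries of mESC (median 111), against 92.8, 92.0 and 87.9 CPM in WT. The ranges did not overlap, and the difference was 0.38 (SE 0.067, adjusted p = 5.66e-05), or 0.32 without A677T replicate 3, which held the highest value. Zmat3 (ENSMUSG00000027663.12, chromosome 3 from 32334792 to 32366014) stood at 136 to 166 CPM (median 152) against 111, 115 and 115 CPM in WT. Again no library overlapped, and the difference was 0.44 (SE 0.057, adjusted p = 6.94e-07). Both genes kept their direction and their call in all 15 fits that left out 1 library, and with GC correction (0.27 and 0.36).

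Ccng1 and Trp53inp1 are the members with the most AT-rich exons (39.5% and 39.4% GC), and their rises in mESC were the most dependent on GC correction. Ccng1 (ENSMUSG00000020326.7, chromosome 11 from 40748552 to 40755311) held 139 to 197 CPM in the variant libraries (median 152) and 126, 113 and 117 CPM in WT. The libraries did not overlap and the difference was 0.43 (SE 0.074, adjusted p = 4.84e-05), but it was 0.07 with GC correction (adjusted p = 0.154). Trp53inp1 (ENSMUSG00000028211.11, chromosome 4 from 11156431 to 11174379) held 99.6 to 160 CPM (median 121) against 93.9, 88.4 and 86.4 CPM in WT. Its difference of 0.48 (SE 0.099, adjusted p = 0.000437) stayed past the threshold at 0.12 with GC correction (adjusted p = 0.0200).

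Gdf15 fell in the Weaver variants in mESC. The gene (ENSMUSG00000038508.7) lies on chromosome 8 from 70629393 to 70632456, minus strand. The 12 variant libraries held 2.42 to 4.61 CPM (median 4.31), against 7.24, 7.48 and 9.40 CPM in WT, with no overlap. The log2 difference was -1.0 (SE 0.108, adjusted p = 4.56e-08), and -0.63 with GC correction (SE 0.102, adjusted p = 5.36e-06). All 4 lines passed singly, from -0.80 in R679C to -1.44 in K563E. A677T, R679C and K634E (4.16, 4.48 and 4.35 CPM) lay within their spread of each other, and K563E was lowest at 2.86 ± 0.583 CPM (SD, n = 3).

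The death genes Bbc3 and Bax are GC-rich (67.1% and 59.0%). Bbc3 (ENSMUSG00000002083.13, chromosome 7 from 16308393 to 16318205) held 8.25 to 21.4 CPM in the variant libraries of mESC (median 15.3), against 21.1, 16.3 and 22.5 CPM in WT. The libraries overlapped, and the difference of -0.42 (SE 0.155, adjusted p = 0.0329) lost its call without WT replicate 1 (adjusted p = 0.122) or WT replicate 3 (0.162). With GC correction it turned to 0.08 (adjusted p = 0.411). Bax (ENSMUSG00000003873.11, chromosome 7 from 45461697 to 45466898) stood at -0.23 (SE 0.102, adjusted p = 0.0775) and at 0.06 with GC correction. Bax overlaps Gm45808, a gene on the same strand. How the counting treated reads that match both is not given in the sources used here.

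**Figure D2:**
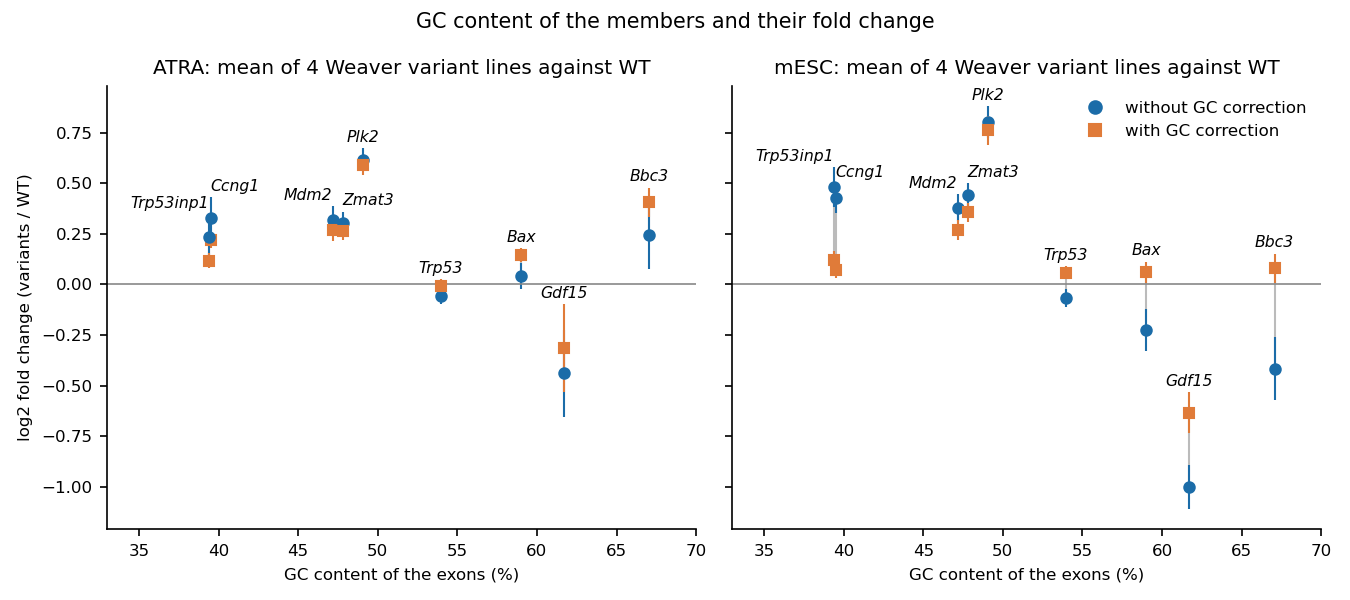
Weaver variants (mean of 4 lines) over WT as a log2 fold change (y axis, bars are standard errors) against the GC content of each member's exons in percent, in ATRA and in mESC, before (circles) and after (squares) the GC trend of each library was taken out. In mESC the correction moves Trp53inp1, Ccng1, Gdf15 and Bbc3 most, Ccng1 standing at 0.07 after and 0.43 before and Bbc3 at 0.08 and -0.42, whereas Plk2 stands at 0.76 and 0.80.

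After ATRA, 4 members were higher in the Weaver variants than in WT and no other member passed. Of the 17030 genes tested, 20.5% were called, and 8.43% of all those tested were called higher. The 4 members were Mdm2 (0.32, SE 0.070, adjusted p = 0.00153), Ccng1 (0.33, SE 0.100, adjusted p = 0.0224), Plk2 (0.62, SE 0.057, adjusted p = 5.55e-09) and Zmat3 (0.30, SE 0.054, adjusted p = 0.000149). The median over members was 0.24, against -0.0021 over all genes. The same 4 passed without the library that stands apart. Trp53inp1 (0.23), Bbc3 (0.24) and Bax (0.04) did not pass, but did with GC correction, 7 higher in all, where 11.6% of genes were called higher.

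Plk2 held 77.4 to 118 CPM in the 12 variant libraries of ATRA (median 95.0) and 57.9, 60.4 and 64.8 CPM in WT. Mdm2 held 215 to 304 CPM (median 251) and 203, 184 and 214 CPM in WT. Neither gene overlapped between the groups. Zmat3 held 183 to 243 CPM (median 216.5) against 184, 175 and 171 CPM in WT, where the lowest variant library lay just under the highest WT library. Ccng1 held 179 to 312 CPM (median 240) against 194, 165 and 225 CPM in WT, with wide overlap, and its call was lost without WT replicate 1 (adjusted p = 0.0843) or WT replicate 2 (0.216). Gdf15 was near its lower limit at 0.681 to 1.52 CPM (median 0.947), against 1.04, 1.58 and 1.43 CPM in WT, and its difference of -0.44 did not pass (SE 0.216, adjusted p = 0.161). These values rest on 14 to 40 counts a library.

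Taken singly, the lines differed from WT in 19.4% (A677T), 10.3% (R679C), 15% (K634E) and 20.5% (K563E) of genes after ATRA, and in 44.6%, 23.7%, 29.3% and 34.5% in mESC. Plk2 and Zmat3 passed in all 4 lines in both states, although in A677T after ATRA the libraries overlapped for Zmat3 and its call held in only 2 of the 6 fits without 1 library. Mdm2 passed in 3 of 4 lines after ATRA and in 4 in mESC, Ccng1 in 2 and 4, and Trp53inp1 in none after ATRA, where its line differences were 0.12 to 0.32, and in 4 in mESC. With GC correction Mdm2 passed in 2 lines after ATRA and in 3 in mESC, and Ccng1 and Trp53inp1 in 2 lines in each state, while Plk2 and Zmat3 still passed in 4. For Ccng1 in A677T in mESC, the difference was 0.03 with the correction and 0.48 without it. In K634E after ATRA, the calls of Mdm2 and Ccng1 were lost without replicate 3 (adjusted p = 0.370 and 0.279). Bax was higher in R679C after ATRA (0.31, adjusted p = 0.0125), where its 187, 175 and 165 CPM lay above the 142, 146.5 and 138.5 CPM of WT. In A677T in mESC the falls of Bbc3 (-0.61) and Bax (-0.41) were lost without replicate 3 (adjusted p = 0.123 and 0.0934).

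**Figure D3:**
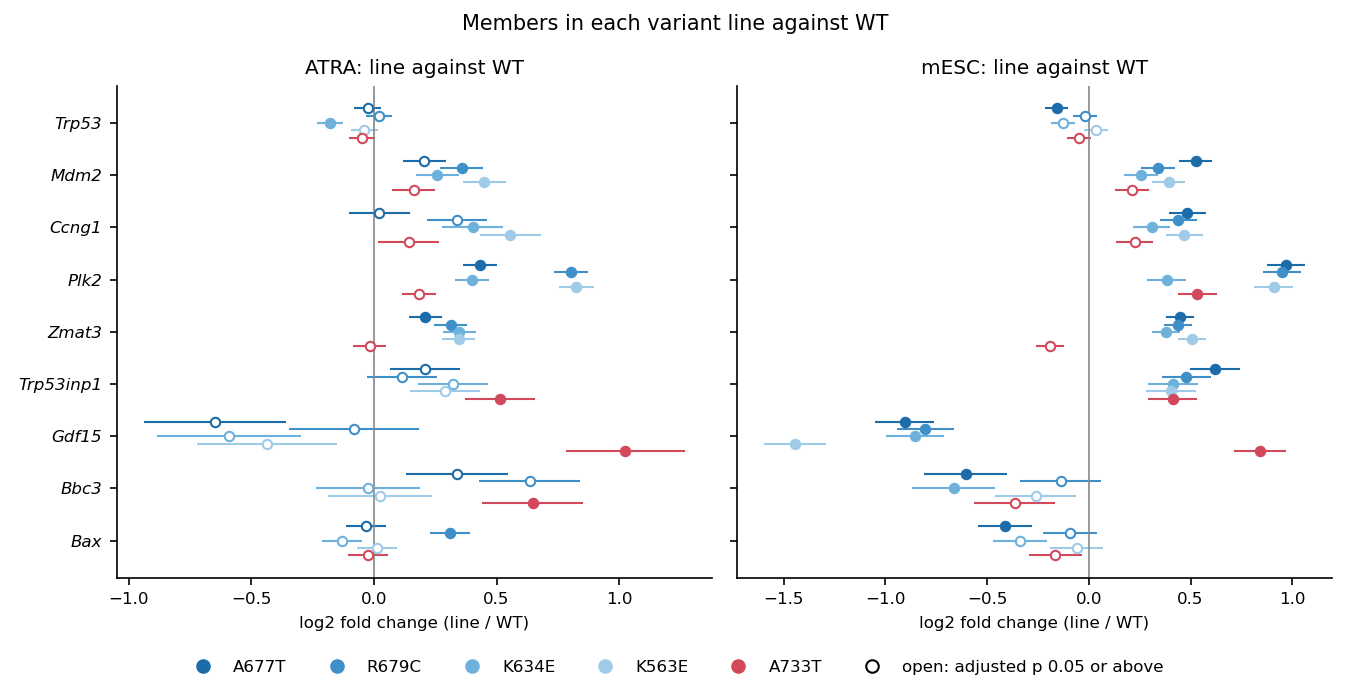
log2 fold change of each of the 5 variant lines over WT (x axis, bars are standard errors) for the 9 members in ATRA and in mESC; filled points passed an adjusted p under 0.05. The blue Weaver variant points lie right of 0 for Mdm2, Plk2 and Zmat3 in both states, while A733T in red lies right of 0 for Gdf15 and left of the Weaver variants for Zmat3.

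Tested for a difference between the states, the effect of the Weaver variants passed for 0 of the 9 members (edgeR), against 7.07% of 17683 genes. At an unadjusted p under 0.05 there were 3 (Bbc3, Bax and Gdf15), and DESeq2 called 0. Bbc3 came nearest, at 0.69 more in ATRA than in mESC (SE 0.247, adjusted p = 0.0855), and it passed without the libraries that stand apart (0.67, adjusted p = 0.0424) and with GC correction (0.37, adjusted p = 0.0209). For Plk2 the difference between the states was -0.15 (SE 0.089) and for Mdm2 -0.03 (SE 0.093).

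A733T had more Gdf15 than WT in both states, and more Plk2 and Trp53inp1 in mESC. In mESC these 3 members were higher in A733T and no other passed, against 19.3% of genes called and 10.7% called higher. Gdf15 stood at 11.3, 14.8 and 16.3 CPM in A733T and at 7.24, 7.48 and 9.40 CPM in WT, without overlap (0.84, SE 0.127, adjusted p = 2.66e-05). Het, with no EZH2 added, held 14.2, 14.7 and 15.7 CPM of Gdf15, within the range of A733T. A difference of A733T from het was not tested. Plk2 stood at 20.5, 20.6 and 19.8 CPM against 14.3, 13.2 and 15.4 CPM in WT (0.53, SE 0.095, adjusted p = 0.000231). Trp53inp1 stood at 120, 105 and 127 CPM against 93.9, 88.4 and 86.4 CPM (0.41, SE 0.122, adjusted p = 0.0192). The libraries did not overlap for Trp53inp1, but its call was lost without WT replicate 3, A733T replicate 1 or A733T replicate 3 (adjusted p of 0.0604 to 0.117). Zmat3 was not called, with 104, 101 and 88.9 CPM against 111, 115 and 115 CPM in WT (-0.19, adjusted p = 0.0584). Mdm2 (0.21), Ccng1 (0.23), Trp53 (-0.05), Bax (-0.16) and Bbc3 (-0.36) were not called either. With GC correction Zmat3 passed downward (adjusted p = 0.0137) and Mdm2 upward (0.20, adjusted p = 0.0129). That made 5 members called, where 24.4% of genes were.

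After ATRA, 3 members were higher in A733T than in WT, Gdf15, Bbc3 and Trp53inp1, against 17.7% of genes called and 10.4% called higher. Gdf15 stood at 2.66, 3.46 and 2.20 CPM and at 1.04, 1.58 and 1.43 CPM in WT (1.02, SE 0.242, adjusted p = 0.00351). Het held 2.36, 3.63 and 3.57 CPM of Gdf15, which overlapped A733T. Bbc3 stood at 38.7, 39.5 and 32.5 CPM and at 24.2, 24.8 and 21.7 CPM in WT (0.65, SE 0.207, adjusted p = 0.0363). Trp53inp1 stood at 218, 210.1 and 242 CPM and at 161, 136 and 172 CPM in WT (0.52, SE 0.143, adjusted p = 0.0157). None of the 3 overlapped between A733T and WT. The call of Bbc3 held in only 1 of the 6 fits that left out 1 library, and that of Trp53inp1 in 4 of 6. Plk2 was not called at 0.19 (adjusted p = 0.0656) and passed with GC correction (0.21, adjusted p = 0.00856). Mdm2 (0.16), Ccng1 (0.14), Zmat3 (-0.02), Bax (-0.03) and Trp53 (-0.05) were not called. With GC correction 6 members were higher, where 14.6% of genes were.

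Set directly against the Weaver variants, a test added after the values were seen, A733T differed in 5 members after ATRA, where 48.5% of genes were called, and in 5 in mESC, where 50.3% were. Gdf15 was higher in A733T by 1.46 after ATRA (SE 0.191, adjusted p = 3.58e-07) and by 1.84 in mESC (SE 0.099, adjusted p = 1.43e-14). Zmat3 was lower in A733T, with log2 differences of -0.32 after ATRA (SE 0.055, adjusted p = 1.84e-05) and -0.63 in mESC (SE 0.058, adjusted p = 6.09e-10). Plk2 was lower too, at -0.43 after ATRA (SE 0.056, adjusted p = 3.83e-07) and -0.27 in mESC (SE 0.074, adjusted p = 0.00325). The A733T and Weaver variant libraries did not overlap for Gdf15 or Zmat3 in either state. Bbc3 and Trp53inp1 were higher in A733T after ATRA (0.40 and 0.28, adjusted p = 0.0433 and 0.0413) and Mdm2 and Ccng1 lower in mESC (-0.17 and -0.20, adjusted p = 0.0360 and 0.0236). Of these last 4 calls, those of Bbc3, Mdm2 and Ccng1 were lost with GC correction, and all 4 were lost in 2 to 8 of the 15 fits that left out 1 library. The effect of A733T against WT did not differ between the states for any member by edgeR (0 called, against 3.17% of genes, and 3 at an unadjusted p under 0.05), while DESeq2 called 1, Bbc3. With GC correction Bbc3 (0.75, adjusted p = 0.000138) and Trp53inp1 (0.29, adjusted p = 0.00437) were called, where 5.46% of genes were.

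Gdf15 is also induced by ATF4 and DDIT3 in the integrated stress response, so genes of that response were set beside it, in a list of 32 that overlaps the p53 targets in Sesn2 and Ddit4. In mESC, 24 of 31 measured members were lower in the Weaver variants, where 22.9% of all genes were, with a median of -0.44. Of the list 1 was higher, where 21.4% of all genes were. GC-corrected, 20 were lower and 3 higher, where 20% and 16.1% of all genes were. Chac1, which breaks down glutathione, stood at 6.09 CPM in the Weaver variants and 18.7 CPM in WT (-1.82, SE 0.111, adjusted p = 1.42e-12), and Trib3, a pseudokinase induced by ATF4, at 23.2 and 43.8 CPM (-0.91, adjusted p = 7.21e-10). Ddit3 stood at 6.87 and 10.9 CPM (-0.63, adjusted p = 3.72e-07) and Atf4 at 420 and 500 CPM (-0.22, adjusted p = 0.000130), a call that Atf4 lost with GC correction (-0.05). After ATRA, 14 of 32 were lower, where 12.1% of all genes were, and none of the others passed, with a median of -0.20. GC-corrected, 16 were lower and 2 higher, where 14.7% and 11.6% of all genes were. In A733T, 21 of 32 were higher after ATRA and 14 of 31 in mESC, against 10.4% and 10.7% of all genes, and 1 was lower in mESC, with medians of 0.39 and 0.18. Chac1 stood at 45.8 CPM in A733T after ATRA against 8.32 CPM in WT (2.46, SE 0.198, adjusted p = 2.80e-08). WT was itself below het in this list, in 26 of 32 genes after ATRA and 22 of 31 in mESC, against 8.74% and 6.84% of all genes, with medians of -0.72 and -0.43. Chac1 after ATRA stood at 77.1 CPM in het and 81.2 CPM in parental cells, so that A733T lay between WT and het. Whether these genes and Gdf15 share a cause was not tested.

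**Figure D4:**
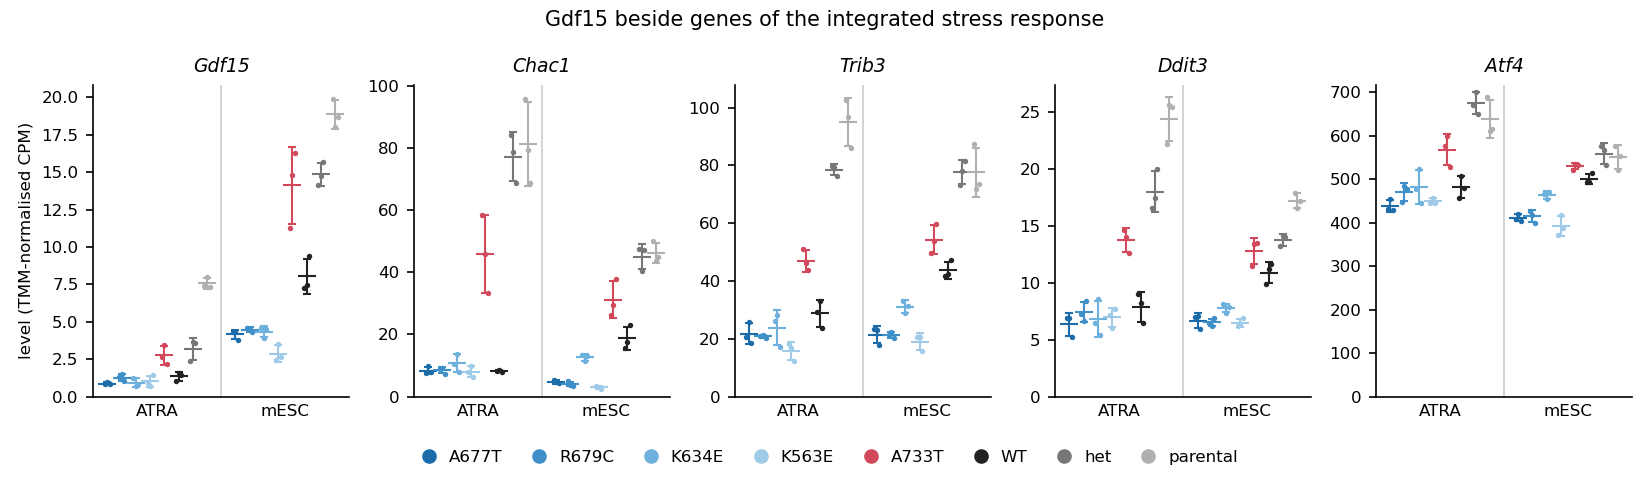
Level of Gdf15 and of 4 genes of the integrated stress response (TMM-normalised CPM, linear axes from 0) in ATRA and in mESC for the 8 lines; dots are libraries and bars the mean ± SD (n = 3). In mESC, Gdf15, Chac1, Trib3 and Ddit3 have lower means in each of the 4 Weaver variant lines than in WT, and higher means in A733T, het and parental cells.

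The heterozygous line had less of several targets than its parental line. In mESC 2 of 9 members were lower in het and none of the other 7 passed, where 3.44% of genes were called and 2.26% called lower. Plk2 stood at 13.9, 16.4 and 12.9 CPM in het and 22.9, 24.2 and 23.9 CPM in parental cells (-0.72, SE 0.094, adjusted p = 1.74e-05). Mdm2 stood at 87.4, 86.0 and 82.0 CPM in het and 100.4, 113 and 109.6 CPM in parental cells (-0.34, SE 0.083, adjusted p = 0.0151). Neither gene overlapped, but the call of Mdm2 held in only 2 of the 6 fits that left out 1 library. Ccng1 (-0.31, adjusted p = 0.0600), Zmat3 (-0.23, adjusted p = 0.0756), Trp53inp1 (-0.36, adjusted p = 0.119), Gdf15 (-0.35, adjusted p = 0.122) and Bbc3 (-0.45, adjusted p = 0.319) were not called. Trp53 (0.0018) and Bax (0.01) were not called. With GC correction Ccng1, Zmat3, Trp53inp1, Gdf15 and Bbc3 passed as well, 7 lower in all, where 4.18% of genes were lower. The median was -0.34 over the members and 0.0034 over all genes.

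After ATRA, 3 of 9 members, Mdm2, Plk2 and Gdf15, were lower in het and none of the other 6 passed, where 6.25% of genes were called and 4.05% called lower. Gdf15 stood at 2.36, 3.63 and 3.57 CPM in het and 7.38, 7.99 and 7.35 CPM in parental cells (-1.27, SE 0.195, adjusted p = 5.97e-05). Plk2 stood at 45.0, 43.3 and 43.0 CPM against 63.1, 63.1 and 65.8 CPM (-0.55, SE 0.070, adjusted p = 3.62e-06), and Mdm2 at 181, 170.4 and 167 CPM against 217, 218 and 208 CPM (-0.32, SE 0.087, adjusted p = 0.0239). Trp53inp1 (-0.33), Bbc3 (-0.35), Zmat3 (-0.21), Ccng1 (-0.20), Bax (-0.03) and Trp53 (0.05) were not called. None of the 3 called genes overlapped, and the call of Mdm2 again held in 2 of 6 fits without 1 library. The difference in Gdf15 was lower after ATRA than in mESC by a log2 difference of -0.93 (SE 0.218, adjusted p = 0.0227), the only member of the 9 called in that test, which called 0.73% of genes. That call held in 6 of the 12 fits without 1 library. With GC correction 7 members were lower after ATRA too, where 6.4% of genes were.

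The line with added EZH2-WT differed from both the het line it was made from and parental cells. In mESC, Plk2 averaged 14.3 ± 1.11 CPM in WT, 14.4 ± 1.79 CPM in het and 23.7 ± 0.692 CPM in parental cells (SD, n = 3 each), and Gdf15 averaged 8.04 ± 1.19, 14.9 ± 0.769 and 18.9 ± 0.961 CPM. WT thus lay within the spread of het for Plk2 (-0.01, SE 0.097, adjusted p = 0.949) and below both for Gdf15 (-0.89 against het, SE 0.126, adjusted p = 1.93e-05). Of the members, 1 was higher in WT than in het (Trp53, 0.19, SE 0.058, adjusted p = 0.0314) and 1 lower, where 12.1% of genes were called, 5.22% higher and 6.84% lower. The call of Trp53 held in only 1 of 6 fits without 1 library. Bbc3 (0.29), Bax (0.14), Zmat3 (0.11), Mdm2 (0.09), Ccng1 (0.04) and Trp53inp1 (-0.08) were not called. Against parental cells, WT was lower in Mdm2 (-0.25), Ccng1 (-0.27), Plk2 (-0.74), Gdf15 (-1.24) and Trp53inp1 (-0.45) and higher in Trp53 (0.19) in mESC, where 19.1% of genes were called. The calls of Mdm2, Ccng1, Trp53 and Trp53inp1 were each lost without at least 1 library.

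After ATRA, WT was higher than het in Ccng1 (0.55, SE 0.125, adjusted p = 0.00378) and Plk2 (0.48, SE 0.071, adjusted p = 1.88e-05) and lower in Gdf15 (-1.19, SE 0.233, adjusted p = 0.000639), where 16.4% of genes were called, 7.64% higher and 8.74% lower. Plk2 stood at 57.9, 60.4 and 64.8 CPM in WT and at 45.0, 43.3 and 43.0 CPM in het, and Ccng1 at 194, 165 and 225 CPM against 140, 138 and 122 CPM, without overlap. Mdm2 (0.22), Zmat3 (0.18), Trp53inp1 (0.13), Trp53 (0.06), Bax (0.06) and Bbc3 (-0.38) were not called. With GC correction 5 members were higher, with Mdm2, Zmat3 and Bax added, and 2 lower, with Bbc3 added, where 13.1% of genes were higher and 12.2% lower. The difference between WT and het in Plk2 was larger after ATRA than in mESC by 0.49 (SE 0.114, adjusted p = 0.00935), in a test that called 2.25% of genes. Without the mESC library of het replicate 2 the adjusted p was 0.0756. With GC correction Ccng1 was called in this test as well (0.39), where 4.6% of genes were. Against parental cells after ATRA, WT was lower in Gdf15 (-2.46, adjusted p = 2.13e-09) and Bbc3 (-0.73, adjusted p = 0.0114). Ccng1 was higher in WT there (0.35, adjusted p = 0.0413), and the other members were not called. These 3 calls are given without the share of all genes called in the same fit, so they have no background. In the GC-corrected fit 36.26% of all genes were called. The calls of Bbc3 and Ccng1 held in 4 and 1 of 6 fits without 1 library. With GC correction 2 members were higher and 3 lower, where 16.65% and 19.61% of genes were. Gdf15 was the member with the widest range over lines after ATRA, with means from 0.868 CPM in A677T to 7.57 CPM in parental cells, an 8.73-fold span. The comparisons of the variants with WT and of WT with het use the same WT libraries. For Plk2 in mESC, the line means stood, from high to low, in the order A677T, R679C, K563E, parental, A733T, K634E, het and WT.

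Most members differed between ATRA and mESC in every line. The states differ in 2i/LIF as well as in ATRA, so the part of each cannot be told apart. In WT, 5 were higher and 2 lower after ATRA than in mESC, where 59% of 17683 genes were called, 29.8% higher and 29.2% lower. Plk2 stood at 57.9, 60.4 and 64.8 CPM in ATRA and 14.3, 13.2 and 15.4 CPM in mESC (2.10, SE 0.082, adjusted p = 2.40e-26). Mdm2 (1.14, SE 0.084), Trp53inp1 (0.80, SE 0.137), Ccng1 (0.71, SE 0.110) and Zmat3 (0.64, SE 0.067) rose, with adjusted p of 4.07e-06 or less. Gdf15 fell to 1.04, 1.58 and 1.43 CPM in ATRA, against 7.24, 7.48 and 9.40 CPM in mESC (-2.54, SE 0.191, adjusted p = 7.24e-16). Trp53 fell to 326, 330.3 and 332 CPM in ATRA, against 436, 448 and 474 CPM in mESC (-0.46, SE 0.056, adjusted p = 1.48e-09). The median was 0.64 over the members and 0.02 over all genes tested. Of 39 other p53 targets measured, described further below, 16 were higher and 13 lower, where 29.8% and 29.2% of all genes were. Their median was 0.05. Cdkn1a, one of them, fell from 92.9 CPM in mESC to 58.6 CPM in ATRA (-0.67, SE 0.081, adjusted p = 1.44e-09), and by -0.48 with GC correction.

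Between ATRA and mESC in the other lines, the share of genes called was 55.3% (A677T), 57.5% (R679C), 57.4% (K634E), 57.8% (K563E), 55.8% (A733T), 56.8% (het) and 55.2% (parental). Mdm2, Plk2, Zmat3 and Trp53inp1 rose in all 8 lines, by 0.86 to 1.24, 1.43 to 2.14, 0.44 to 0.83 and 0.43 to 0.93. Trp53 fell in all 8, with log2 changes of -0.28 to -0.49, and so did Gdf15, from -1.32 in parental cells to -2.54 in WT. Ccng1 rose in 6 lines and was not called in het (0.21, adjusted p = 0.101) or parental cells (0.10, adjusted p = 0.449). Bbc3 rose in 7 lines, by up to 1.28 in A733T, and was not called in WT (0.24, adjusted p = 0.355), where it passed with GC correction (0.33, adjusted p = 0.00225). Bax passed in no line, with values of -0.22 to 0.21. Over the mean of the 8 lines 8 of 9 members were called, where 81.2% of genes were.

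**Figure D5:**
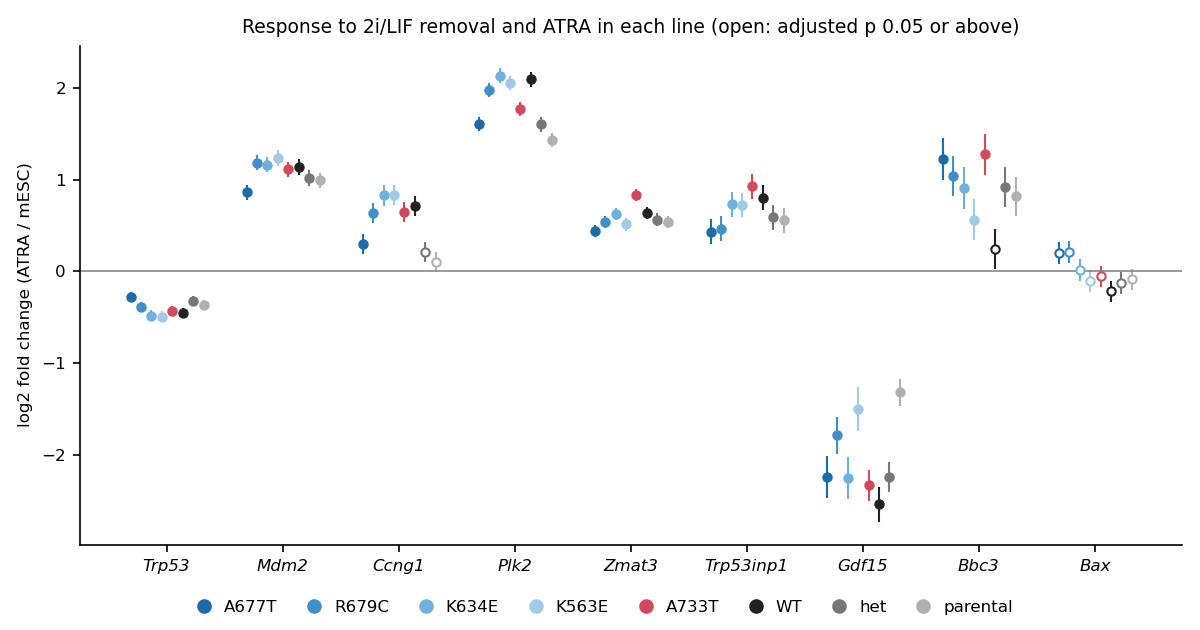
log2 fold change of ATRA over mESC (y axis, bars are standard errors) for the 9 members in each of the 8 lines; filled points passed an adjusted p under 0.05. Trp53 and Gdf15 lie below 0 and Mdm2, Plk2, Zmat3 and Trp53inp1 above 0 in all 8 lines, and Bax lies around 0.

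Among 40 other p53 targets, 39 were measured after ATRA and 38 in mESC. In the Weaver variants 16 were higher and 4 lower after ATRA, where 8.43% of all genes were higher and 12.1% lower, with a median of 0.15. In mESC 12 were higher and 9 lower, where 21.4% and 22.9% of all genes were, with a median of 0.07. GC-corrected, 20 were higher and 5 lower after ATRA, where 11.6% and 14.7% of all genes were. In mESC the corrected counts were 16 and 8, where 16.1% and 20% of all genes were. Pmaip1, which encodes the death activator NOXA, rose in both states, to 65.2 CPM in the variants after ATRA against 43.6 CPM in WT (0.58, SE 0.119, adjusted p = 0.00123), and to 78.0 against 40.5 CPM in mESC (0.98, SE 0.098, adjusted p = 1.88e-08). Eda2r, a death receptor gene, rose in mESC (0.61, SE 0.076, adjusted p = 4.18e-07), whereas Ddit4, an inhibitor of mTORC1 that the stress response also induces, fell there (-0.99, SE 0.121, adjusted p = 9.28e-07). GC-corrected, the changes in mESC were 0.69 for Pmaip1, 0.36 for Eda2r and -0.75 for Ddit4. After ATRA, Zfp365 rose (0.48, SE 0.074, adjusted p = 1.82e-05) and Ephx1, a detoxifying hydrolase, fell (-0.54, SE 0.132, adjusted p = 0.00379). Among genes near 1 CPM, Dram1 fell after ATRA (-0.85, adjusted p = 0.0265) and Trp53cor1 fell in mESC (-0.78, adjusted p = 0.0109).

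Cdkn1a, the p53 target that encodes the cell cycle inhibitor p21, did not follow Mdm2 and Plk2 in mESC. It averaged 82.7 CPM in the Weaver variants and 92.9 CPM in WT there (-0.13, SE 0.066, adjusted p = 0.107), and 75.4 and 58.6 CPM after ATRA (0.35, SE 0.057, adjusted p = 5.07e-05). By line after ATRA, A677T (60.8 ± 3.92 CPM, SD, n = 3) lay within the spread of WT (58.6 ± 4.25 CPM). K634E, K563E and R679C averaged 68.2, 78.3 and 94.4 CPM. The effect of the variants on Cdkn1a differed between the states by 0.52 (SE 0.091, adjusted p = 0.000111). A733T had more Cdkn1a than WT after ATRA (81.2 against 58.6 CPM, adjusted p = 2.99e-05) and in mESC (108 against 92.9 CPM, adjusted p = 0.0461). Het had less than parental cells after ATRA (52.3 against 74.0 CPM, adjusted p = 1.51e-05) and in mESC (122 against 166 CPM, adjusted p = 0.00146).

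In A733T, 16 of the 39 other targets were higher and 1 lower after ATRA, where 10.4% of all genes were higher and 7.33% lower. In mESC 11 of 38 were higher and 1 lower, where 10.7% and 8.64% were, and the medians were 0.12 and 0.08. GC-corrected, 19 were higher and 2 lower after ATRA, where 14.6% and 12% of all genes were. In mESC the corrected counts were 16 and 1, where 15.1% and 9.28% of all genes were. Ephx1 rose in both states (1.04 and 1.14, adjusted p = 2.40e-05 and 3.66e-06), as did Tap1, a peptide transporter of antigen presentation (1.10 and 1.36, adjusted p = 6.78e-06 and 0.00155). In het against parental cells, 12 of 39 passed after ATRA and 8 of 38 in mESC, all lower, where 4.05% and 2.26% of all genes were lower, with medians of -0.22 and -0.20. With GC correction 21 and 16 passed, all lower, where 6.4% and 4.18% of all genes were. They included Cd80, a co-stimulatory ligand (-0.87 and -1.07, adjusted p = 0.00709 and 0.000983), and Ephx1 (-0.75 and -0.54, adjusted p = 0.000857 and 0.0186). The lists were chosen with earlier results of these data known.

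Of 29 genes that act on p53, 28 were measured in each state. In the Weaver variants 6 were higher and 1 lower after ATRA, where 8.43% of all genes were higher and 12.1% lower, and 10 were higher and 3 lower in mESC, where 21.4% and 22.9% were, with medians of 0.05 and 0.08. With GC correction 4 were lower after ATRA and 6 in mESC, where 14.7% and 20% of all genes were, and the medians were 0.0042 and 0.0033. Setd7, a lysine methyltransferase that acts on p53, rose after ATRA (0.30, SE 0.049, adjusted p = 4.95e-05) and in mESC (0.58, SE 0.083, adjusted p = 3.53e-06). Sirt1, a deacetylase of p53, rose in mESC (0.58, SE 0.077, adjusted p = 1.34e-06), and Ppm1d, a phosphatase of the pathway, after ATRA (0.32, SE 0.053, adjusted p = 6.13e-05). GC-corrected, the rises in mESC were 0.30 for Sirt1 and 0.48 for Setd7. Ppp1r13b, also on this list, fell in mESC (-0.60, SE 0.0905, adjusted p = 7.25e-06), and by -0.46 with GC correction. Cdkn2a, whose ARF product restrains Mdm2, averaged 17.3 CPM in the Weaver variants and 9.67 CPM in WT after ATRA (0.73, SE 0.106, adjusted p = 8.88e-06), and 14.7 and 10.8 CPM in mESC (0.40, SE 0.090, adjusted p = 0.000902). Counts per gene do not separate its ARF and INK4a transcripts. By line it was highest in R679C (26.4 ± 3.68 CPM in ATRA and 20.7 ± 1.22 CPM in mESC, SD, n = 3). In A677T it averaged 8.88 ± 1.28 CPM in ATRA and 8.08 ± 0.759 CPM in mESC, below the mean of WT. Mdm4, the partner of Mdm2, did not pass in the Weaver variants after ATRA (0.02, adjusted p = 0.902) or in mESC (0.21, adjusted p = 0.0706), and was higher in A733T (0.33 and 0.55, adjusted p = 0.0398 and 0.00132).

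The members did not vary as 1 block over the 16 groups. With each state centred on its own mean, the Pearson correlation of log2 levels was 0.96 between Mdm2 and Plk2, 0.89 between Mdm2 and Ccng1 and 0.81 between Mdm2 and Zmat3, but -0.012 between Mdm2 and Trp53 and -0.55 between Mdm2 and Gdf15. Of 10834 genes, those most like Mdm2 were Plk2 (0.96), Csnk1g1 (0.94), Zfp365 (0.93), Rps27l (0.91) and Ddit4l (0.90), of which Zfp365 and Rps27l are also on the list of p53 targets. Those most like Trp53 were Cd3eap (0.87), Sf3b2 (0.86), Asb6 (0.86), Pcbp1 (0.86) and Cyb5d1 (0.86), whose exons hold 50.3% to 57.8% GC against 54.0% for Trp53. The points share libraries, depth and the GC trend, so these values describe the groups and carry no p.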

How the data were processed

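RNA-seq of mouse embryonic stem cells was analysed from raw counts per gene, deposited by the authors in 1 table. Per the submitters' processing notes, which give no roles or order, the tools were cutadapt 3.2, STAR 2.7.3a, featureCounts 1.6.4 and DESeq2 1.38.3 with the mm10 build. For the annotation release, strand setting and multi-mapping reads, the choice is not given in the sources used here. Of the columns, 6 match no label, so Y728 was not analysed here and the planned mean of 5 Weaver variants was run with 4. Gene names, lengths and GC content came from GENCODE M21, which holds 55141 of the 55401 identifiers.

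Counts were tested with edgeR 4.0.16 (R 4.3.3): low counts filtered by group (filterByExpr), TMM scaling, robust quasi-likelihood fits with 1 mean per line over the 24 libraries of a state (16 residual degrees of freedom) or all 48, and Benjamini-Hochberg adjustment over all genes tested. A gene was called at an adjusted p under 0.05. Levels are TMM-normalised counts per 1000000 counts (CPM). The GC correction took out a lowess trend (span 0.3) of each library's deviation on GC content. Other alternatives were DESeq2 1.42.0, other scaling, no filter, fits to the compared groups alone, a replicate block and 96 fits that each left out 1 library. Of 33 comparisons, 5 were added after values were seen, as was leaving out the 2 libraries that stand apart. The fits were tested on simulated data. Replicates of a group differed beyond sampling noise in all 48 pairs (chi-square per degree of freedom of 2.67 to 35.2).

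The 9 members are named in the main comparisons of each state, and elsewhere the members called or their counts are given. From each list, up to 4 called genes with the largest change and at least 1 CPM are named, with Cdkn1a, Mdm4, Cdkn2a and the stress genes Atf4, Ddit3, Chac1 and Trib3. Members and lists were chosen with earlier results of these data known.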

Additional observations from a re-analysis of the deposited data

Results flagged for a closer look

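The results below are those in which an effect on a member differed between groups by a test of that difference, which was added after the values were seen. Gdf15 was higher in A733T than in the Weaver variants, by 1.464 on the log2 scale after ATRA and 1.844 in mESC, and in mESC it lay above WT in A733T and below WT in the variants. The Gdf15 means of A733T (2.77 CPM after ATRA and 14.1 CPM in mESC) lay within the spread of het (3.19 and 14.9 CPM). Zmat3 was lower in A733T than in the Weaver variants, with log2 differences of -0.3217 after ATRA and -0.6332 in mESC. Gdf15 was lower in het than in parental cells by more after ATRA than in mESC, with a log2 difference between the states of -0.9259. The difference of WT from het in Plk2 was 0.4925 higher after ATRA than in mESC. These values come with no explanation, and their causes were not tested.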

How the results depend on the processing

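DESeq2 and its size factors turned no direction of a member called in either fit. They moved the count of members called by over 1.5 times only in 2 differences between states. The counts there were 1 for A733T against WT and 2 for WT against het, against 0 and 1. Counts that moved by more in the main comparisons are given here. With GC correction, with or without the replicate block, they were 5 for A733T against WT and 7 for het against parental cells in mESC, and 7 for the Weaver variants, 6 for A733T, 7 for het against parental cells and 7 for WT against het in ATRA, against 3, 2, 4, 3, 3 and 3. For the difference of the Weaver variants' effect between states, where 0 were called, the count was 1 with GC correction, 2 with GC correction and the block, 2 without the filter and 1 without the 2 libraries that stand apart. Without the filter it was 5 for het against parental cells in both states and 1 for WT against het in mESC. Fitted to the compared groups alone it was 7 for A733T and 7 for het in mESC, and 6 for het and 6 for WT against het in ATRA. Without the 2 libraries it was 6 for A733T and 4 for het in mESC and 5 for WT against het in ATRA. Shares of all genes called are given here only for the main fits and for GC correction. Under the other settings a higher member count may go with more genes called in all, which was not tested. The cause was not tested.

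The replicate numbers were not taken as pairs, since no label says what they share and not every same-numbered pair was positively correlated (over 84 pairs a state, -0.34 to 0.69 with a median of 0.19 in ATRA and -0.50 to 0.71 with a median of 0.087 in mESC). As a hint from the data, 18 and 15 of 24 libraries were closest to their own number. With the block, 6 members were called for het against parental cells and 6 for WT against het in ATRA, and 1 for the difference between states.

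In single lines against WT, GC correction gave 5 members in A677T and 3 in K634E in mESC, against 9 and 7, and 4 in A677T, 7 in R679C and 2 in K634E in ATRA, against 2, 4 and 5. With the correction 37.65% and 18.1% of all genes were called in these lines in mESC, and 26.2%, 16.9% and 14.2% in ATRA. For differences between states it gave 2 for A733T against WT and 2 for WT against het, against 0 and 1.

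Leaving out 1 library gave 3 to 4 (Weaver variants), 1 to 3 (A733T), 2 to 3 (het) and 3 to 4 (WT against het) members in ATRA, 6 to 9, 2 to 3, 1 to 2 and 1 to 2 in mESC, 7 to 8 for ATRA against mESC in WT and 0 to 1 for the difference between states.

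Among members called in the main fit or under another setting, directions turned only with GC correction. Members called in neither are not listed, such as Bax in the Weaver variants in mESC (-0.23, and 0.06 with GC correction). Some of these also changed sign in fits without 1 library. Values of the turned members are given here without and with the block. Bbc3 turned for the Weaver variants (0.080 and 0.082) and R679C (0.26 and 0.26) in mESC, Ccng1 for K634E in mESC (-0.069 and -0.068), Bax for K563E in mESC (0.21 and 0.21) and for ATRA over the mean of 8 lines (0.078 and 0.078), and Trp53inp1 for A733T against the Weaver variants in mESC (0.13 and 0.13). With GC correction and the block, Bbc3 also turned for K634E in ATRA (0.25) and Ccng1 for the difference between states (0.16). Gdf15 after ATRA rests on few counts, which limits what can be detected there.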
